A study of Gymnopus androsaceus with 9 samples.

Results

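Transcript levels at 5 months of growth were set against those at 2 months in mycelium of Gymnopus androsaceus on pine needle litter. The comparison took the 3 libraries labelled 5 months and the 3 labelled 2 months, which are 6 of the 9 libraries of the series, chosen by their harvest label and joined on JGI protein ID. The remaining 3 libraries, from 10 months, entered the statistical fit to share its estimate of spread and are given below only as levels. Both harvests had the same start: Scots pine needles mixed with sand were sterilised by gamma radiation, inoculated with a needle that already carried the fungus, and wetted with ammonium chloride solution. The sealed vessels were then kept at a constant temperature until harvest. The labels give no strain or genotype, name each library a biological replicate, and describe more vessels per harvest than there are libraries. The sterile start and the added ammonium limit the cultures as a model of litter in a forest, where other organisms are present.

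Gymnopus androsaceus, the horsehair fungus, is a basidiomycete that lives on fallen conifer needles and spreads between them by thin, dark, hair-like cords. Fungi of this kind digest litter outside their cells. They secrete hydrolases that cut cellulose, hemicellulose and pectin into sugars, and oxidative enzymes that modify lignin, the polymer that shields the carbohydrates. Soluble compounds are commonly used before the polymers, so the diet of a litter fungus can change as a needle ages. The deposited tables pair no protein ID with a name or product. The identity of the tissue could therefore not be checked against marker genes, no sequence is shown, and nothing is said of what a gene encodes.

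Depth came to 61180124, 78159105 and 29885380 unique gene reads in the 5-month libraries, against 51907213, 30205968 and 21939600 in the 2-month libraries. A floor of 3 reads corresponded to 0.0384 to 0.1 CPM (counts scaled to library size) at 5 months and to 0.0578 to 0.137 CPM at 2 months, for counting error only. As whole profiles the harvests lay apart. The root mean square difference in log2 CPM over the tested genes was 0.454 to 0.676 for the 3 pairs of 5-month libraries and 0.731 to 0.851 for the 3 pairs of 2-month libraries, against 0.982 to 1.25 for the 9 pairs that join the harvests. The 5-month libraries thus lay closer to each other than the 2-month libraries did. Every pair within a harvest was closer than every pair between harvests. 2-month replicate 2 stood apart from its fellows in a few very abundant transcripts. Its 10 most abundant genes took 26.8% of unique reads, against 9.72% and 7.64% in 2-month replicates 1 and 3 and 6.39% to 6.68% in the 5-month libraries.

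**Figure D1:**
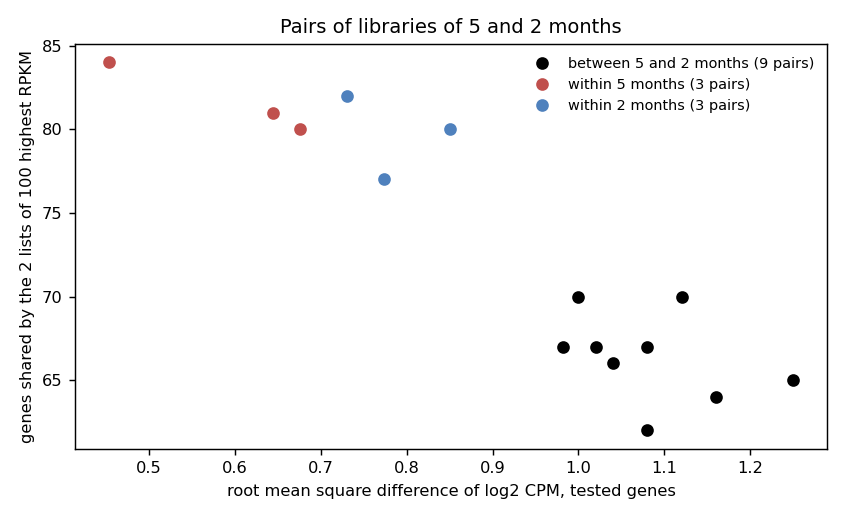
Each point is a pair of libraries of 5 and 2 months. The horizontal axis gives the root mean square difference of log2 CPM over the tested genes, and the vertical axis the number of genes shared by their lists of the 100 highest RPKM values. Pairs joining the harvests lie at 0.982 or more and share 62 to 70 genes, whereas pairs within a harvest lie at 0.851 or less and share 77 to 84.

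Many genes rose and many fell between 2 and 5 months, and more of the called changes of at least 2-fold were rises. Of 20168 genes tested, 4180 (20.7%) passed edgeR's quasi-likelihood test, with Benjamini-Hochberg adjustment and a threshold of 0.05. Higher at 5 months were 2345 genes (11.6% of those tested), and lower were 1835 (9.1%). At least 2-fold changes made up 1710 of the higher genes, or 8.48% of tested genes, and 747 of the lower genes, or 3.7%. Changes of under 2-fold were called for 635 higher and 1088 lower genes. Counts are relative to the whole pool of each library, and in such bulk samples fewer hyphae of one kind and less RNA per hypha cannot be told apart. Scaling to library totals alone, without TMM factors, left the higher genes at 2348 but the lower genes at 629, so that 78.9% of calls were higher in place of 56.1%; the median log2 fold change over tested genes was then 0.13, where TMM gave -0.01. The count of lower genes fell when any library was dropped. It was 1039, 1042 and 1177 without 5-month replicates 1, 2 and 3. Without 2-month replicates 1, 2 and 3 it was 1547, 1747 and 1333. A fit with a library dropped has fewer replicates, and how far this alone lowered the counts was not tested. Dropping 5-month replicate 2 left 2772 calls in all.

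**Figure D2:**
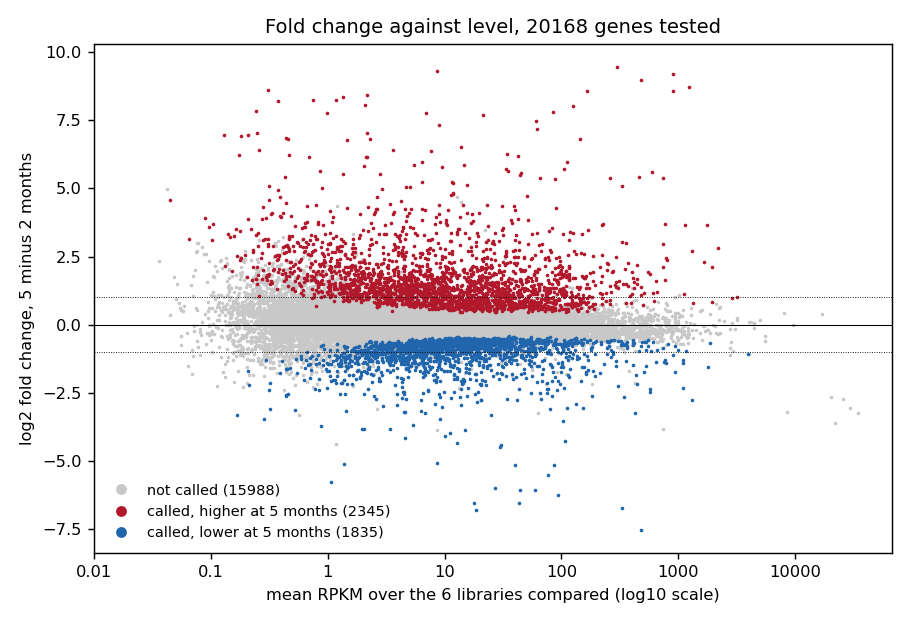
Each point is a tested gene. The horizontal axis is the mean deposited RPKM over the 6 libraries on a log scale, and the vertical axis is the log2 fold change, 5 minus 2 months, with dotted lines at 2-fold. Called genes are coloured (2345 higher, 1835 lower) and the rest are grey, including a few very abundant genes at the lower right that did not pass the test.

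Many called genes were separated by a wide gap. In 785 of the called higher genes each 5-month library held at least 2 times the CPM of each 2-month library, and the reverse held in 215 of the called lower genes. Over all tested genes, called or not, these patterns were seen in 3.95% and 1.1%. The first group had a median log2 fold change of 2.46 and a median level of 9.87 CPM at 5 months. The second had a median log2 fold change of -2.02 and a median level of 17.1 CPM at 2 months. A weaker pattern, harvests that merely do not overlap, was seen in 37.9% of tested genes and in nearly all called ones, with 79 called genes as the exception.

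The size of a change set how often it could be called. Fitted changes below 0.5 on the log2 scale were called in 0.264% of 11759 genes, and changes from there to 2-fold in 34% of 4975 genes. From 2- to 4-fold, 66% of 2568 genes were called, with 1099 higher and 597 lower. From 4- to 8-fold, 84.4% of 537 genes were called, with 348 higher and 105 lower. Beyond 8-fold, 93.6% of 329 genes were called, with 263 higher and 45 lower. Under TMM scaling the excess of higher genes therefore lay in the larger changes. Between a log2 change of 0.5 and 2-fold the lower genes led, at 1067 against 625 higher genes. With library totals alone, changes of at least 2-fold made up 2010 of 2348 higher and 503 of 629 lower genes. By that scaling the lower genes did not lead among called changes of under 2-fold. The fold classes rest on the same fold changes as the calls and are given as a description.

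Failure to pass the test meant different things in different genes. In 9857 genes (48.9%) the 95% interval of the fold change, taken gene by gene with no adjustment, lay wholly within 2-fold in either direction, and 9515 of these were not called. For these genes the data bound the change to under 2-fold. In another 6473 genes that were not called the interval reached beyond 2-fold, so a change of that size is neither shown nor bounded. Of 977 genes with a fitted change of at least 2-fold that missed the threshold, 652 were fitted higher and 325 lower at 5 months. They tended to be scarce, with a median of 0.743 RPKM, against 6.86 RPKM for the called genes of that size. Not all were scarce, as the abundant uncalled genes described below reach a fitted log2 fold change of -3.61. The median SE of the 977 genes was 0.63 on the log2 scale, against 0.32. The SE is derived from the same test statistic as the call, so this gap in SE is a description. At the other end, the interval lay wholly beyond 2-fold in 767 higher and 209 lower genes.

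Genes that rose and genes that fell were not spread alike over the range of abundance. Level was taken as mean RPKM over the 6 libraries, a unit that also divides by transcript length. Under 1 RPKM, 8.62% of 2832 genes were called higher and 1.69% lower, and the median SE of the log2 fold change was 0.58. From 1 to 10 RPKM, 12.3% of 7918 genes were called higher and 9.7% lower. From 10 to 100 RPKM the directions came closest, with 11.9% of 7710 genes higher and 11.1% lower and a median SE of 0.20. Over 100 RPKM, 11.9% of 1708 genes were higher and 9.54% lower. Among these abundant genes 143 rose and 69 fell at least 2-fold, which is 8.37% and 4.04% of them, near the 8.48% and 3.7% of all tested genes. The share of higher genes was thus near the 11.6% of all tested genes in each class above 1 RPKM, and the lower genes were few in the scarcest class. The median log2 fold change of all tested genes under 1 RPKM, called or not, was 0.27. Scarce genes can pass the low-count filter only through libraries in which they are read. How far this sets the shares in that class was not tested.

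Over all tested genes, transcript length, as implied by the deposited values, divided the lower calls more than the higher ones. In 4 classes of 5042 tested genes each, the calls of higher genes stood at 10.9%, 11.8%, 12.9% and 10.9% from the shortest class (150 to 714 bases) to the longest (1626 to 13812 bases). The calls of lower genes stood at 5.47%, 7.87%, 11.6% and 11.4% in the same order. Short genes were also measured less sharply, with a median SE of 0.35 in the shortest class against 0.21 in the longest, and were less abundant, at a median of 5.01 against 10.0 RPKM. Within genes of 10 to 100 RPKM alone, lower calls made up 8.57%, 10.3%, 13.4% and 10.9% from shortest to longest. Higher calls there made up 14%, 11.9%, 12.3% and 10.5% in the same order, with the largest share in the shortest class. The median SE ran from 0.24 to 0.18. How far precision sets these shares was not tested.

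Genes that share reads with other genes had a larger SE, and those with most of their reads shared were called higher more often than tested genes as a whole, a difference that was not tested. Where over 50% of a gene's reads over the 6 libraries were not unique to it, 39 of 187 genes were called higher and 12 lower. These are 20.9% and 6.42%, against 11.6% and 9.1% of all tested genes. Where 10 to 50% of reads were shared, 12.1% of 1451 genes were higher and 6.96% lower, and under 10% shared, 11.5% of 18530 genes were higher and 9.29% lower. Reads not counted as unique were left out, so the counts of such genes rest on only a part of their reads. How the authors assigned shared reads is not stated. Over whole libraries the share of reads not unique to one gene was 2.22%, 2.16% and 1.33% at 5 months, against 1.75%, 1.41% and 1.75% at 2 months, and these ranges overlapped (two-sided exact permutation test, p = 0.5, adjusted over 3 quantities p = 0.5).

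**Figure D3:**
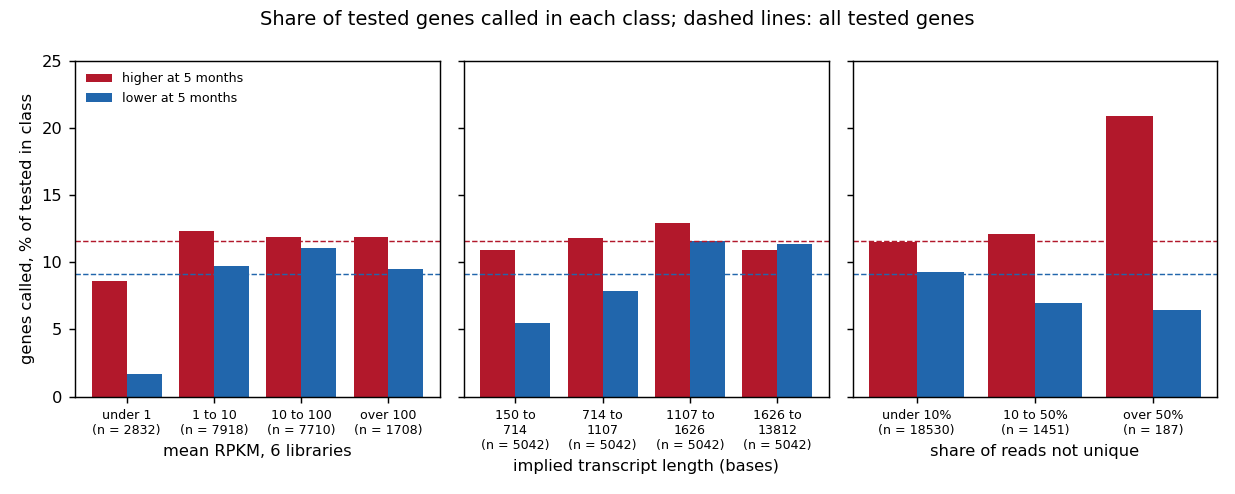
Bars give the percentage of tested genes in each class that were called higher (red) or lower (blue) at 5 months, by mean RPKM, by implied transcript length and by the share of reads not unique to one gene. Dashed lines mark 11.6% and 9.1%, the shares of all tested genes. The lower genes are sparse under 1 RPKM (1.69%) and in the shortest class (5.47%), and the higher genes are frequent where over 50% of reads are shared (20.9%).

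Over all genes listed, 1372 had reads at 5 months and none at 2 months, and 664 had reads at 2 months and none at 5 months. Only 19 genes without reads at 2 months passed the low-count filter, and 18 of them were called higher. They could pass it only through libraries in which they were read, so that count is a description and supports nothing. In these 18 genes the reads summed over the 5-month libraries ran from 33 to 187 with a median of 64. Set against a floor of 3 reads over the whole 2-month harvest, their levels were at least 6.2-fold higher in the scarcest and at least 35.1-fold higher in the most abundant. All 18 had a mean under 1 CPM at 5 months. No gene without a unique read at 5 months passed the filter, so a complete loss could not be called. A stricter switch, with under 1 CPM in each library of one harvest and 10 CPM or more in each library of the other, was seen in 8 genes with the high level at 5 months and in 4 genes with the high level at 2 months. The 5-month libraries were on average deeper, which bears on all counts of genes without reads.

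The number of genes detected was compared at one depth. After thinning each library at random to 21939600 unique reads, 21583, 21671 and 20969 genes had a read at 5 months, against 21219, 20612 and 20928 at 2 months. The ranges overlapped. The averages differed by 488 genes, with an SD of 382 genes at 5 months and 304 genes at 2 months (n = 3). A two-sided exact permutation test did not separate the harvests (p = 0.2, adjusted over 3 quantities p = 0.3). With 3 against 3 libraries this test cannot give a p under 0.1. At the same depth, 18520, 18614 and 18356 genes had at least 10 reads at 5 months, against 18095, 17830 and 17926 at 2 months. By this count the harvests did not overlap, and the difference was 546.3 genes (two-sided exact permutation test, p = 0.1, not adjusted). Thinning made total reads equal, but not the reads left for less abundant genes. The 10 most abundant genes of a library took 7.64% to 26.8% of unique reads at 2 months and 6.39% to 6.68% at 5 months. How far this set the counts of detected genes was not tested. At full depth the difference in genes with a read was 832.3 (exact permutation test, p = 0.2).

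The evenness of the transcript pool was measured by the number of genes that together carried 50% of the unique reads. This was 823, 832 and 796 at 5 months, against 724, 331 and 720 at 2 months. The harvests did not overlap. The averages were 817 ± 18.7 genes (SD, n = 3) at 5 months and 592 ± 226 genes (SD, n = 3) at 2 months, which gives p = 0.1 by the two-sided exact permutation test, the smallest it allows, and p = 0.3 adjusted over 3 quantities. The size of the difference, 225.3 genes, rested largely on 2-month replicate 2, and was 95 genes without it. The largest differences in the pool lay in genes that did not pass the test. The 10 such genes with the most negative difference in mean CPM, picked for it, summed to -108015 TMM-scaled CPM. They took 2.17%, 2.33% and 3.05% of unique reads at 5 months, against 8.11%, 25.9% and 4.94% at 2 months. In the 10-month libraries they took 17.6%, 32.6% and 1.96%, above every 5-month value in replicates 1 and 2 and below it in replicate 3. As a sum the 5- and 2-month libraries did not overlap, yet the single genes varied widely between 2-month libraries. Their fitted log2 fold changes were -3.61 to -0.62, with SE of 0.25 to 1.32 and edgeR adjusted p of 0.0521 to 0.216.

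The called genes held a moderate part of the pool. Genes higher at 5 months took 16.1%, 16.6% and 17.3% of unique reads at 5 months, against 6.28%, 4.92% and 5.4% at 2 months. Genes lower at 5 months took 6.56%, 6.36% and 6.31% at 5 months, against 11.9%, 10.4% and 13.4% at 2 months. These genes were chosen on the same libraries, so the gaps are a description. The gain of the higher genes came to 89764 TMM-scaled CPM in all and the loss of the lower genes to 56527. Of the 2345 higher genes, 10 gave 19.5% of the gain, and 50% was reached with 74. Of the 1835 lower genes, 10 gave 19.8% of the loss, and 50% was reached with 81. These sums leave out the genes that were not called. When DESeq2 made the calls, the lower genes took 11.4%, 11.2% and 12.1% at 5 months, against 23.8%, 39.5% and 22.2% at 2 months, more than the edgeR calls did.

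In the 10-month libraries, which the contrast did not use, the called genes stood, by their medians, nearer to the 5-month than to the 2-month level. The genes higher at 5 months had a median level of 3.97 to 4.54 CPM at 2 months, 11.4 to 13.6 CPM at 5 months and 9.95 to 10.9 CPM at 10 months, TMM-scaled. The genes lower at 5 months had a median level of 18.9 to 21.0 CPM at 2 months, 9.87 to 10.1 CPM at 5 months and 9.71 to 10.3 CPM at 10 months. As shares of unique reads, the higher genes took 5.54% ± 0.689, 16.7% ± 0.638 and 14.4% ± 2.38 of the reads (SD, n = 3) at 2, 5 and 10 months. The lower genes took 11.9% ± 1.47, 6.41% ± 0.131 and 4.96% ± 1.26 (SD, n = 3) in the same order. The 10-month shares varied more than the 5-month shares. They were lowest in 10-month replicate 2, at 12.1% and 3.69%, whose 10 most abundant genes took 35.2% of its reads.

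**Figure D4:**
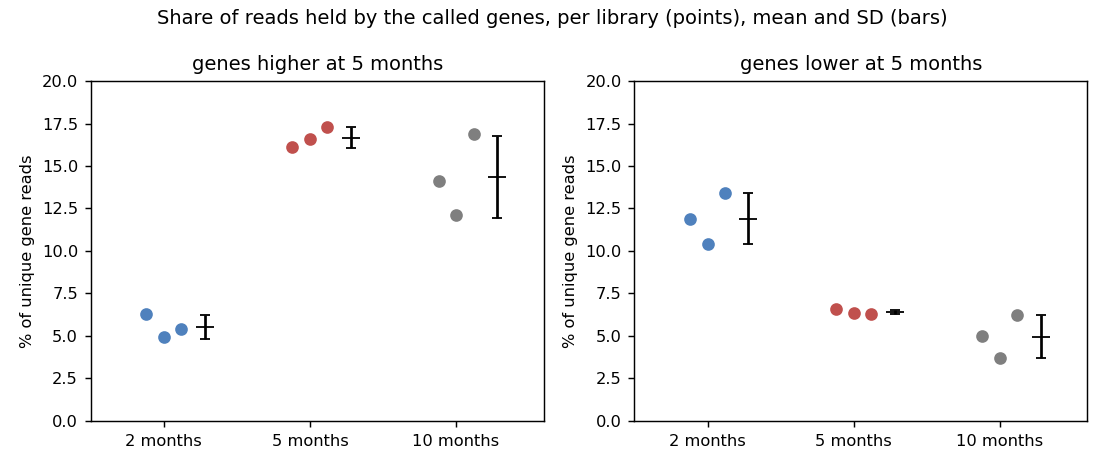
Points give, for each library, the percentage of unique gene reads held by the 2345 genes called higher (left) and the 1835 called lower (right) at 5 against 2 months; bars are the mean and SD of 3 libraries. The higher genes take 16.1% to 17.3% at 5 months and 12.1% to 16.9% at 10 months, against 4.92% to 6.28% at 2 months.

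The ranks of the most abundant transcripts turned over in part. Of the 100 genes with the highest mean RPKM at 5 months, 69 were also among the 100 highest at 2 months. The 31 that were new to the list at 5 months included 19 called higher and 12 not called, and the 31 that had left it included 13 called lower and 18 not called. Of the 69 in both lists, 3 were called higher, 2 lower and 64 not called. Over all tested genes 11.6% were called higher and 9.1% lower. A place on one list only is itself a difference between the harvests, so these counts describe the turnover and do not test it.

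Genes were singled out by the largest gain or loss in mean CPM among called genes whose libraries did not overlap and whose reads were at most 10% shared, 2 in each direction. JGI protein ID 550982, with an implied transcript of 1636 bases, had 3367, 3068 and 2580 CPM in the 5-month libraries, against 226, 226 and 255 CPM in the 2-month libraries. The groups were far apart and both were tight. It averaged 3000 ± 397 CPM (SD, n = 3) in 5-month cultures and 235 ± 16.7 CPM (SD, n = 3) in 2-month cultures. The fitted log2 fold change was 3.67 ± 0.22 (SE), or 12.8-fold, by edgeR (adjusted p = 4.03e-06). By deposited RPKM it stood at rank 41 at 5 months and rank 1028 at 2 months. It had 2337, 2486 and 2795 TMM-scaled CPM in the 10-month libraries, within or just under the 5-month range. By deposited RPKM it had 1212, 895.5 and 1626 at 10 months, each under every 5-month value (2397, 2187 and 1798). Whether it held its level to 10 months therefore depended on the scaling.

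ID 939561, with 1902 bases, was already among the most abundant transcripts, at rank 15 by RPKM at 5 months and rank 37 at 2 months. Its level was 7094, 7347 and 6848 CPM at 5 months, against 5441, 2946 and 2095 CPM at 2 months. The 5-month libraries were alike and all higher, whereas the 2-month libraries ranged widely. The averages were 7100 ± 249 CPM (SD, n = 3) in 5-month cultures and 3490 ± 1740 CPM (SD, n = 3) in 2-month cultures. The fitted log2 fold change was 1.02 ± 0.32 (SE) by edgeR (adjusted p = 0.0387). This call was lost in 8 of 18 alternatives. It was lost without any one of the 5-month libraries (adjusted p = 0.0773 to 0.0959), without 2-month replicate 2 (0.108) or 3 (0.126), with the 6 compared libraries alone (0.0537), with replicate number as a block (0.05 when rounded, not under it) and in a test against a 2-fold minimum (1), within a range of 0.00358 to 1 over all alternatives run.

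Among the genes that fell, ID 923714, with 935 bases, had 2176, 1894 and 2504 CPM at 5 months, against 3691, 4360 and 5732 CPM at 2 months. The groups did not overlap, and the 2-month libraries were the more widely spread. Averages came to 2190 ± 305 CPM (SD, n = 3) in 5-month cultures and 4590 ± 1040 CPM (SD, n = 3) in 2-month cultures. The fitted log2 fold change was -1.07 ± 0.26 (SE) by edgeR (adjusted p = 0.0122). Dropping 5-month replicate 2 gave -0.97 on the log2 scale and lost the call (edgeR, adjusted p = 0.0581), as did the test against a 2-fold minimum (adjusted p = 1). The adjusted p over the alternatives ran from 0.00014 to 1. Even after the fall it ranked 30 by RPKM at 5 months, against 13 at 2 months. In the 10-month libraries it had 2384, 3559 and 3558 CPM, above every 5-month value in replicates 2 and 3. By deposited RPKM it had 2164, 2243 and 3622 at 10 months, against 2711, 2362 and 3053 at 5 months.

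ID 1023075, with 2245 bases, had 924, 938 and 908 CPM at 5 months, against 2000, 2346 and 2462 CPM at 2 months. The 5-month values were nearly identical, and each lay well under each 2-month value. Averages came to 923 ± 14.6 CPM (SD, n = 3) in 5-month cultures and 2270 ± 240 CPM (SD, n = 3) in 2-month cultures. The fitted log2 fold change was -1.30 ± 0.22 (SE) by edgeR (adjusted p = 0.00152). It was called in 17 of 18 alternatives, the exception being the test against a 2-fold minimum (adjusted p = 0.403), over a range of 1.04e-08 to 0.403. Its rank by RPKM was 345 at 5 months and 94 at 2 months, and in the 10-month libraries it had 311, 433 and 492 CPM.

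**Figure D5:**
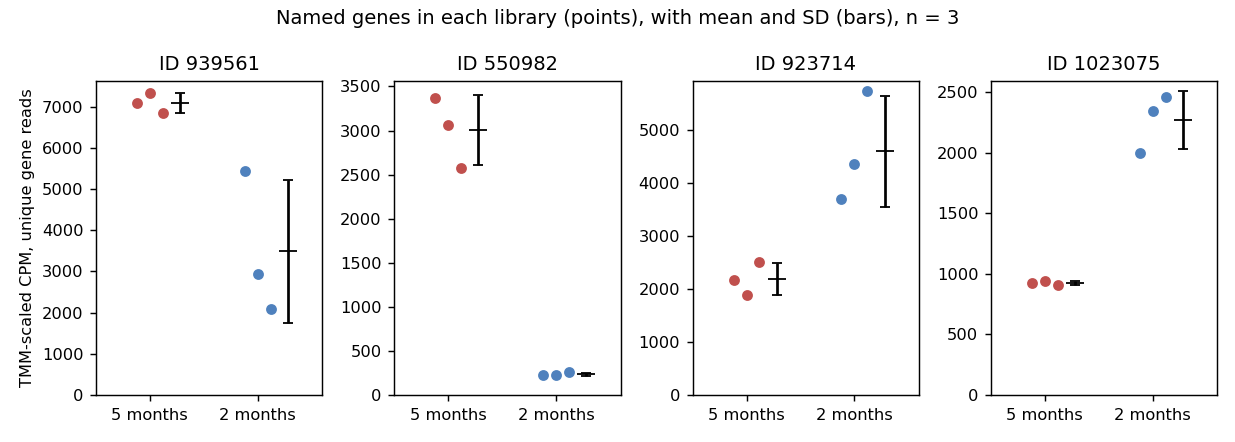
Each panel shows one gene, with its TMM-scaled CPM in each 5-month library (red) and each 2-month library (blue); bars beside the points are the mean and SD of 3 libraries, and each vertical axis starts at 0. ID 550982 averages 3000 CPM at 5 months and 235 CPM at 2 months, ID 939561 varies most at 2 months (SD 1740 CPM), and IDs 923714 and 1023075 are lower in every 5-month library.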

How the data were processed

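The authors deposited one table per library with 29375 JGI protein IDs and, per the file headers, 3 values per gene: counts of unique and of total gene reads, and RPKM. The aligner, counter, genome build and annotation of the authors are not stated in the labels or headers. Unique reads were analysed as counts. Each gene's implied transcript length came from its total reads, its RPKM and the library's summed total reads.

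Tests used edgeR 4.0.16 (R 4.3.3): TMM scaling (factors 0.596 to 1.19), filterByExpr, which left 20168 genes and set aside 9207, and robust quasi-likelihood fits of all 9 libraries without covariates (6 residual degrees of freedom). A call is a Benjamini-Hochberg adjusted p under 0.05 over all tested genes. SE is the log2 fold change divided by the square root of F. CPM of named genes and of gene groups is TMM-scaled, which has no fixed sum; read shares are plain percentages. The log2 CPM of library pairs used a prior count of 2.

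The comparison, gene classes and the rule for named genes were chosen with earlier results of these data known. Product lists were planned but not used, as IDs have no products. The labels do not say that replicate numbers mark a shared batch, and libraries of the same number did not deviate together (correlations -0.14, -0.13 and -0.2), so numbers were not treated as pairs. No pair of libraries within a harvest agreed within sampling noise (chi-square per gene 80.3 or more). p-values measure the spread between the deposited libraries. The fit was tested on simulated data with known changes. Alternatives used DESeq2 1.42.0, limma voom 3.58.1, other scalings and filters, total reads, thinned libraries, a replicate block and each library left out. Figures were drawn in Python 3.11.15 with matplotlib 3.10.9.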

Additional observations from a re-analysis of the deposited data

How the results depend on the processing

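The 4180 changed genes became 2539 (1466 higher, 1073 lower) with testing limited to genes of 10 CPM or more in 3 libraries, and 657 (519 higher, 138 lower) in a test against a 2-fold minimum. Fitting the 6 compared libraries alone, without the 10-month harvest, gave 3288 (1972 higher, 1316 lower) and kept 76.7% of the main calls. Typical scatter between replicates, as a percentage of a gene's level, was largest in the 2-month harvest (28.8%). It came to 23% in the 5-month and 21.7% in the 10-month harvest. How far the 10-month libraries raised the main count through the shared spread was not tested. The remaining settings with all 6 libraries gave 2977 to 5216 changed genes. Lower genes numbered 629 with library totals alone. Leaving out one library at a time gave 2772 to 4028 changed, 1730 to 2281 higher and 1039 to 1747 lower genes. DESeq2 called 5216 genes, among them 4179 of the 4180. Reads held by higher genes averaged 20% at 5 months and 7.41% at 2 months under DESeq2, and those of lower genes 11.6% and 28.5%; the cause was not tested. With replicate number as a block, 3113 genes were called, 3057 of them also without it; the samples share only a number, so this fit is not read as a paired one. All 4 named genes kept their direction under every alternative run. The difference in genes detected ran from 334.2 to 707.3 with one library left out, that in genes carrying 50% of the reads from 95 to 291.5, and that in the non-unique share from 0.1083 to 0.5533 percentage points. Genes under 1 RPKM had a median SE of 0.58; how much of it is counting error was not tested.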
